A study of Mus musculus with 36 samples.

Results

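Oocytes labelled as controls in a mouse study of Drp1, the GTPase that divides mitochondria, were examined as a single group across their whole transcriptome. Members are the 18 libraries with the genotype label Drp1_WT, out of 36 libraries in the series, and each library holds the RNA of 1 oocyte at the germinal vesicle (GV) stage. The labels divide them among 5 mice: mouse 1 (tubes 1 to 3), mouse 2 (tubes 4 to 6), mouse 3 (tubes 7, 8, 10, 11 and 12), mouse 4 (tubes 13 to 15) and mouse 5 (tubes 27 to 30). The sources used here name no strain, age, hormone treatment, Cre driver or floxed allele, so the alleles of the controls are not known. No comparison with the libraries labelled Drp1_KO was made.

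A GV oocyte is a large cell held in prophase of the first meiotic division. During growth it stores the mRNAs and proteins on which meiosis and the first days of the embryo depend, and transcription falls silent as growth ends. Its transcripts are therefore a stockpile: some are translated during growth, such as those of the zona pellucida coat and of the growth factors sent to the surrounding granulosa cells, and others wait in a dormant, short-tailed form until meiosis resumes. Much of this store is made from genes that few other cells use, several of them from families that expanded in rodents.

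Library totals ran from 4699541 to 7406895 counts, with a median of 6213216, and 13508 to 14659 genes had at least 1 count per oocyte. Dnm1l, which encodes Drp1, was between 234 and 322 CPM (counts scaled to each library's total) in 13 libraries and between 116 and 156 CPM in tubes 11 to 15, which are 2 oocytes of mouse 3 and all 3 of mouse 4. The part of Dnm1l that was deleted in the study is not named in the labels, and the 5 libraries are described here as labelled. Without them, the 50 most abundant genes held 28.7% of transcript abundance against 28.3% with them, and 19 of the 20 highest genes were shared. Across 11572 genes with a mean of at least 1 CPM, Spearman's correlation between oocytes averaged 0.965 over the 25 pairs with the same mouse label and 0.960 over the 128 pairs with different labels. The most similar oocyte carried the same mouse label for 6 of 18 oocytes. Tubes 6 and 27 were the least similar to the others, with mean correlations of 0.943 and 0.948. Tubes 1 to 4 and 11 to 15 also shared a property that crosses the mouse labels: the deviation of each gene from its mean over oocytes correlated positively with exon length across those genes (0.0493 to 0.225), whereas it correlated negatively in tubes 5, 7, 8, 10 and 27 to 30 (-0.113 to -0.201) and stood at 0.0315 in tube 6.

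The 4 markers of oocytes were abundant in every library. To compare genes, levels are given as TPM, a transcript abundance corrected for exon length that sums to a fixed total in each oocyte, averaged within each mouse label and then over the 5 mouse labels (mean ± SD, n = 5). Zp3, a protein of the zona pellucida, ran from 3604 to 12399 TPM over the 18 oocytes with a median of 8093. Its mean of 7917 ± 1379 TPM placed it at rank 8 of all genes. Gdf9, a growth factor that directs granulosa cells, ran from 3389 to 9408 TPM with a median of 6198 (mean 6332 ± 732, rank 14). Oosp1, an oocyte-secreted protein, ran from 4131 to 9816 TPM with a median of 5648 (mean 5926 ± 984, rank 17). Bmp15, the X-linked partner of Gdf9, ran from 1510 to 3445 TPM with a median of 2345 (mean 2442 ± 389, rank 56). All 4 markers exceeded 1000 TPM in 18 of 18 libraries.

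Promoters of these markers are shown because 2 transcription factors of the growing oocyte, FIGLA and NOBOX, are known for short DNA motifs: FIGLA, a helix-loop-helix factor, binds E-boxes (CANNTG), and NOBOX, a homeodomain factor, binds TAATTG. Both factors were among the measured transcripts (Nobox 902 ± 194 TPM, Figla 175 ± 19.6 TPM). The 250 bases before the RefSeq start site (GRCm38.p6), read 5′ to 3′ on the gene's strand, follow for Zp3 (chr5:135979855-135980104, plus strand), Oosp1 (chr19:11691052-11691301, minus strand) and Bmp15 (chrX:6320725-6320974, minus strand), with every CANNTG or TAATTG match on either strand in capitals.
Zp3: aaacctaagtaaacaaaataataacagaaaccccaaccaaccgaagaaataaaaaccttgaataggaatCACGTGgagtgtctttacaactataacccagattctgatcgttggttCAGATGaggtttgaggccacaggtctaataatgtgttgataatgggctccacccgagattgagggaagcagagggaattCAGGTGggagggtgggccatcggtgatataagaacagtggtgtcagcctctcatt
Oosp1: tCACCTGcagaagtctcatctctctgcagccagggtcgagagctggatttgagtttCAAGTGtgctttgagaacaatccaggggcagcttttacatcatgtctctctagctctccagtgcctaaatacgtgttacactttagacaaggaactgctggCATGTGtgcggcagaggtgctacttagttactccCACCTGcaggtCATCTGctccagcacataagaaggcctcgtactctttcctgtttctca
Bmp15: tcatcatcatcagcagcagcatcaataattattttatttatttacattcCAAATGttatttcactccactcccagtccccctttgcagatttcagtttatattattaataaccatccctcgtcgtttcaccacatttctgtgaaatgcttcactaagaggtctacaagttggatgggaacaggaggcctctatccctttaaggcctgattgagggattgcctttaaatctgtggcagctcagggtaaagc
These windows hold 3, 5 and 1 matches to CANNTG and 0 matches to TAATTG each. No variant of TAATTG was searched, so the 0 matches say nothing of other sequences that NOBOX may bind. Of the 20 genes with the highest TPM, 13 have a window in the RefSeq table. CANNTG was found in 12 of these 13, against 69.3% of the 27025 genes in the table, and TAATTG in 1 of 13, against 8.30%. CANNTG is degenerate and present in 66.2% of all 32851 windows of this length, so a match describes the letters and is not a binding site.

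Measured transcript abundance was concentrated in few genes. The 10 most abundant genes held 11.1% of all TPM, the 50 most abundant 28.3% (SD over mice 0.802, n = 5) and the 500 most abundant 61.6%. The 242 most abundant genes held as much TPM as all the others. A level of at least 1000 TPM was reached by 134 genes, 100 TPM by 1627, 10 TPM by 6261 and 1 TPM by 11042.

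Elobl, a gene similar to the elongin B subunit gene Elob, was the most abundant transcript per length. It ran from 19256 to 27955 TPM over oocytes (median 22432) and its mean was 22544 ± 1583 TPM. H1foo, the linker histone of oocytes, came next at 15281 ± 774 TPM, running from 13803 to 17151. These 2 genes held ranks 1 and 2 in each of the 5 mice, and their oocyte ranges did not overlap. Below them came the homeobox gene Obox2 (12543 ± 1334 TPM), the lactate dehydrogenase subunit gene Ldhb (10965 ± 856), Dppa3, which protects the maternal genome from demethylation (9843 ± 1510), the uncharacterised Gm813 (8748 ± 1830) and the F-box gene Fbxw24 (8731 ± 1026). After Zp3 followed Nlrp14 (7456 ± 793 TPM), the BCL2 relative Bcl2l10 (7398 ± 1086), the Rik-named genes E330017A01Rik (7115 ± 1323) and E330034G19Rik (6795 ± 327), and the polyubiquitin gene Ubb (6430 ± 483). Ranks 14 to 20 were Gdf9, Tcl1, Padi6, Oosp1, Fbxw15, Ooep and Zbed3, between 6332 and 5616 TPM. Of the 19 pairs of neighbours in this order, 2 kept their order in all 5 mice, so below H1foo the order of neighbours lay within the spread between mice. Without length correction the order changes: Nlrp14 had the highest CPM (9636 ± 895), ahead of Obox2 and Elobl. Obox2 and Ubb share part of their transcript stretches with other genes, as given below.

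**Figure D1:**
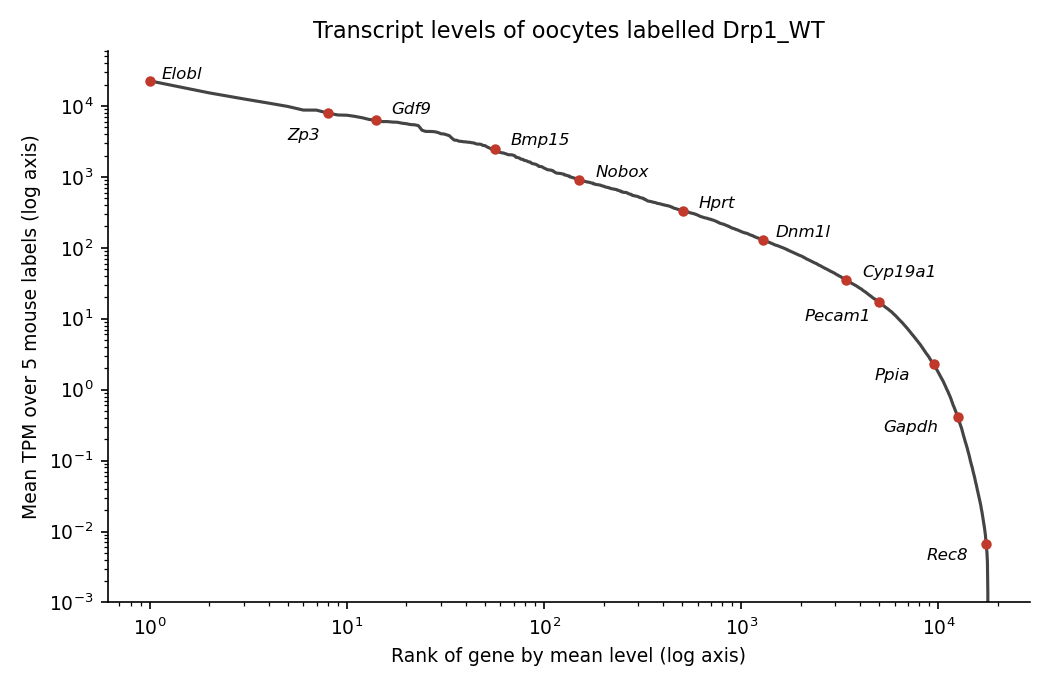
Mean TPM over the 5 mouse labels (vertical, log axis) against the rank of each gene (horizontal, log axis); red points are named genes. Elobl stands at 22544 TPM at rank 1, and Zp3, Gdf9 and Bmp15 lie within the first 56 ranks. Gapdh, which has near-identical copies elsewhere in the genome, is at 0.411 TPM, under the median of 1.06 TPM over all genes.

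Genes of the oocyte coat and surface were led by the zona proteins. Zp3 was followed by Zp2 at 4364 ± 772 TPM and Zp1 at 1464 ± 173 TPM, the former a structural partner of Zp3 and the latter a cross-linker of zona filaments. Zp2 ran from 1960 to 7022 TPM over oocytes, so single oocytes differed more than the mouse means did. Izumo1r, the egg receptor for the sperm protein Izumo1, reached 717 ± 46.4 TPM, and Cd9, needed for gamete fusion, reached 366 ± 48. Astl, the protease that cleaves Zp2 after fertilization, had a mean of 364 ± 150 TPM and ran from 93.2 to 950 among oocytes. Cd81, another tetraspanin, was at 1.76 ± 0.910 TPM.

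Among secreted factors, 5 of 7 listed genes exceeded 1000 TPM. Besides Gdf9, Oosp1 and Bmp15 these were Oosp3 (4548 ± 1079 TPM) and Oosp2 (3521 ± 735), which lie with Oosp1 on chromosome 19 between 11647279 and 11711874. Fgf8, which acts on cumulus cell glycolysis, stood at 276 ± 30.7 TPM and Bmp6 at 26.8 ± 5.62. The 7 genes together held 2.31% of all TPM.

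Transcription factors of the oocyte were far lower than the products of the store. Nobox (902 ± 194 TPM), Lhx8 (188 ± 33.3) and Figla (175 ± 19.6) exceeded 100 TPM. Pou5f1, the pluripotency factor Oct4, was at 39.8 ± 8.21 TPM and Tbpl2, the oocyte form of the TATA-binding protein, at 51.4 ± 8.15. Sohlh1, known from the earliest follicles, had counts in 5 of 18 oocytes (0.170 ± 0.204 TPM), whereas its partner Sohlh2 stood at 6.12 ± 0.469.

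The 8 genes of the subcortical maternal complex and its partners, which build a protein lattice under the egg surface, held 2.35% of all TPM. Padi6 (6020 ± 1376 TPM), Ooep (5712 ± 626) and Zbed3 (5616 ± 1576) led them. Nlrp5, also called Mater, was at 1256 ± 190 TPM, Tle6 at 2049 ± 598, Nlrp4f at 2049 ± 343 and Khdc3 at 266 ± 76. Khdc3 has 54.2% unique coding stretches by the measure given below, and 38.5% of its exon bases overlap another gene. Whether this lowered its value was not tested. Of 9 other Nlrp genes that were matched, 7 exceeded 100 TPM, led by Nlrp14 and by Nlrp9a (935 ± 98.1), Nlrp9b (911 ± 87) and Nlrp4a (727 ± 53.9), while Nlrp12 was at 0.120 ± 0.0797. The rodent families Obox, Oog, Omt2 and Rfpl4 held the largest share of the lists examined, 4.10% of all TPM. Some of their members share stretches with other genes, as given below. Within these families, 8 of 15 genes exceeded 1000 TPM, among them Obox1 (5421 ± 423), Oog3 (4315 ± 585), Obox5 (4051 ± 459) and Rfpl4 (3914 ± 201). The genes under 1 TPM were 3, namely Obox3, Obox6 and Obox8. Maternal-effect genes ran from Dppa3 and the nucleoplasmin gene Npm2 (4025 ± 131 TPM) through Zar1l (2212 ± 87.3) and the imprint protector Zfp57 (1348 ± 141) down to Basp1 (1.14 ± 0.821).

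RNA storage and decay genes included Btg4 at 4379 ± 204 TPM, an adaptor that brings the deadenylase to maternal mRNA after meiosis resumes. Btg4 ran from 3518 to 6176 TPM over oocytes. Zar1 (719 ± 200 TPM), Dazl (707 ± 105) and the polyadenylation regulator Cpeb1 (496 ± 140) followed. Of 21 matched genes, 10 exceeded 100 TPM, and the translational repressor Ddx6 had the lowest level at 5.05 ± 1.61.

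Cell-cycle genes showed unequal measured levels of partners. For entry into meiosis, the Cdk subunit genes Cks2 (1121 ± 309 TPM) and Cks1b (884 ± 116) led. Ccnb1 (790 ± 80.1 TPM) and Ccnb2 (545 ± 54.7) were above Cdk1 (182 ± 19.9), the kinase they activate. Wee2, the oocyte kinase that restrains Cdk1, was at 842 ± 135 TPM, whereas the activating phosphatases Cdc25b, Cdc25a and Cdc25c were at 14.1 ± 2, 14 ± 2.95 and 9.30 ± 1.25. Every mouse mean of Wee2 lay above every mouse mean of the 3 phosphatases. Of the genes that keep the oocyte in prophase through cyclic AMP, the regulatory subunits of protein kinase A, Prkar1a (77 ± 6.54 TPM) and Prkar2b (50.4 ± 2.97), led. The receptor Gpr3 stood at 24.5 ± 5.64 TPM and the phosphodiesterase Pde3a at 16 ± 2.46. Gnas, which encodes the G protein to which Gpr3 couples, was at 0.524 ± 0.0715. In the anaphase list, the securin gene Pttg1 reached 3278 ± 698 TPM and Mos, the kinase that holds eggs in metaphase, reached 1842 ± 323. Fbxo5 (348 ± 37.5) and Ube2c (335 ± 23), which restrain and serve the anaphase-promoting complex, followed, while separase (Espl1) was at 10.6 ± 1.73. Among kinases of the spindle and its checkpoint, Aurka (538 ± 82.2 TPM) and Aurkc (412 ± 52) exceeded Aurkb (22.6 ± 7.63), Birc5 led at 1103 ± 95.8, and the checkpoint gene Bub1b was at 417 ± 112.

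Cohesin holds sister chromatids together from fetal life until meiosis in the adult. The shared subunits Smc3 (176 ± 19.2 TPM) and Smc1a (52.1 ± 1.78) were above the meiotic subunits Smc1b (18.3 ± 2.14), Rad21l (3.38 ± 1.79) and Stag3 (2.08 ± 0.582). The cohesin protector Sgo1 was at 77.7 ± 4.36 TPM and the release factor Wapl at 55.3 ± 5.43. Rec8, the meiotic kleisin, had counts in 1 of 18 oocytes (at 0.170 CPM there), although its coding sequence is 100% unique by the measure given below. Of meiotic recombination genes, Sycp3, a lateral-element protein of the synaptonemal complex, stood at 73.5 ± 18 TPM and Sycp2 at 59.9 ± 9.11. Sycp1 (29.6 ± 8.93) and the crossover gene Msh4 (21.3 ± 5.46) were lower. For Sycp3, 52.2% of the exon bases overlap another gene, and the effect on its value was not tested. Spo11, which makes the breaks that start recombination, and Stra8, which starts meiosis, had 0 counts in all 18 oocytes, which allows a level of up to 0.0275 CPM over the pooled libraries (3 counts, counting error only).

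Chromatin and small RNA genes differed in the same way. Dnmt1, the maintenance DNA methyltransferase, was at 439 ± 74.1 TPM and Dnmt3l, the cofactor of imprint establishment, at 179 ± 39.8, against 18.9 ± 4.50 for Dnmt3a and 4.40 ± 0.819 for Dnmt3b. Tet3, the oocyte form of the enzymes that oxidize methylated cytosine, was at 28.9 ± 3.92 TPM, above Tet1 (2.21 ± 0.228) and Tet2 (0.503 ± 0.148). Of the small RNA genes, the germline genes Mael (230 ± 20.1 TPM) and Ddx4 (78.1 ± 22.1) led. Dicer1 was at 53.6 ± 8.39 TPM and its partner Tarbp2 at 38.6 ± 8.92. Ago2 and Ago3 (17 ± 1.12 and 16.4 ± 1.24) stood above Ago4 (0.531 ± 0.165) and Ago1 (0.0566 ± 0.0483).

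Contact and supply genes were dominated by single members. Gja4, the connexin of the oocyte side of its junctions with granulosa cells, stood at 1129 ± 249 TPM, and Gja1, the granulosa connexin, at 0.799 ± 0.628. Kit, the receptor of granulosa Kit ligand, was at 42.3 ± 10.4 TPM, and the cadherins Cdh1 and Cdh2 were at 29.6 ± 4.53 and 4.92 ± 1.29. Of the energy genes, Ldhb was joined above 100 TPM by G6pdx (777 ± 143) alone. Pdha1 and Mpc1, which feed pyruvate to mitochondria, were at 40.9 ± 7.96 and 29.5 ± 2.35, while Ldha stood at 3.40 ± 1.54 and Hk1 at 0.126 ± 0.0398. Of the calcium genes used at egg activation, Orai1 (79.4 ± 20.2 TPM), Atp2a2 (71.7 ± 9.55), Itpr2 (41.1 ± 4.24) and Stim2 (30.7 ± 5.22) led. Itpr1, the receptor through which calcium leaves the endoplasmic reticulum at fertilization, stood at 5.67 ± 0.408 TPM.

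**Figure D2:**
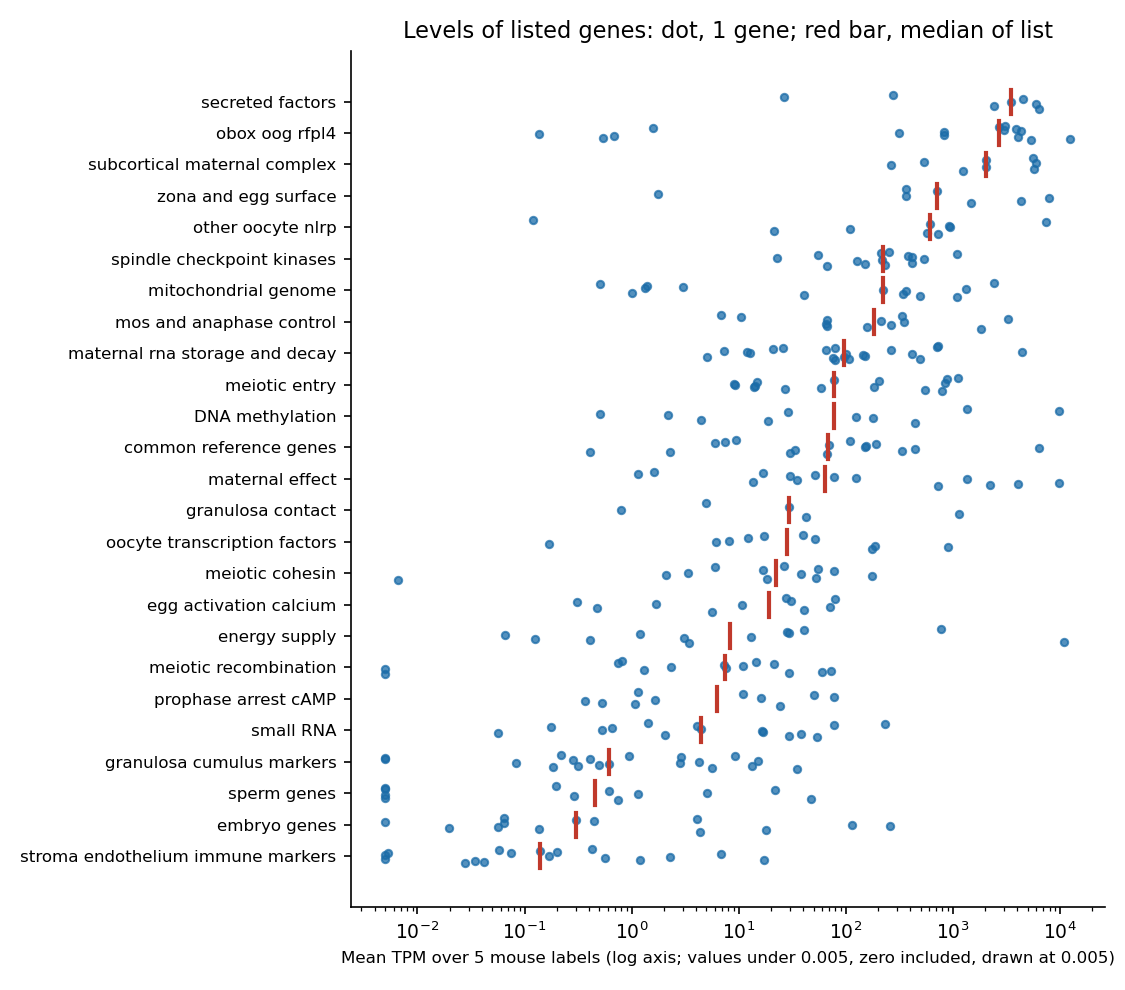
Mean TPM (horizontal, log axis) of each gene of 25 lists; a dot is 1 gene and the red bar is the median of the list. Secreted factors have a median of 3521 TPM and markers of stroma, endothelium, blood and immune cells a median of 0.140 TPM, beside 1.06 TPM over all genes.

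Some genes have near-identical copies elsewhere in the genome. The share of each gene's distinct coding stretches of 100 bases that occur in no other annotated gene was computed after low levels of common genes had been seen. In the mitochondrial genome, mt-Co1 (69.3% unique), mt-Nd1 (100%) and mt-Nd2 (96.8%) were at 1330 ± 381, 1100 ± 517 and 492 ± 187 TPM. Its cytochrome b gene mt-Cytb, with 100% unique stretches, was at 2404 ± 552 TPM, while mt-Co3, with 0.146% unique stretches, was at 3.02 ± 1.07. Gapdh (6.13% unique) was at 0.411 ± 0.132 TPM, while Hprt (100% unique) was at 335 ± 24.9 TPM and ran from 285 to 457 over oocytes. Other reference genes were Eef1a1 (65.8% unique, 440 ± 45.6 TPM) and B2m (100% unique, 193 ± 48.7). The middle 100 bases of the coding sequence of mt-Co3, mt-Cytb, Gapdh and Hprt (GENCODE M21, GRCm38; coding bases 343 to 442, 523 to 622, 489 to 588 and 278 to 377 in this order) are shown in lower case.
mt-Co3: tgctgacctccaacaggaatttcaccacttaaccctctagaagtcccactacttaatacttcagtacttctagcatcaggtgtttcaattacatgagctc
mt-Cytb: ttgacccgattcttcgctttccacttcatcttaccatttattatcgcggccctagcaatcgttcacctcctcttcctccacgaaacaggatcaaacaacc
Gapdh: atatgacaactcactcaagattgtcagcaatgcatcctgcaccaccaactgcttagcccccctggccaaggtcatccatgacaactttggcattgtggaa
Hprt: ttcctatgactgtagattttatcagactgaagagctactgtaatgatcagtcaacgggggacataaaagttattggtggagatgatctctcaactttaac
The mt-Co3 stretch occurs unchanged in 1 other annotated gene, the pseudogene Gm28437. The Gapdh stretch occurs in 33 other genes, of which 31 are annotated as pseudogenes. The mt-Cytb and Hprt stretches occur in 0 others. Ppia, another common reference gene, has 0% unique stretches and was at 2.27 ± 0.522 TPM. A low unique coding share did not always go with a low value: Cks2 has 0% and was at 1121 TPM, Oog1 has 7.20% and was at 311 ± 29.2 TPM, and Ccnb1 has 42.6% and was at 790 TPM. Over all transcript stretches, noncoding parts included, the unique share of these genes was higher: 76.2% for Cks2, 22% for Oog1 and 85.1% for Ccnb1. By the same measure Obox2 had 52.8% (coding 100%), Obox1 57.7% (coding 93.4%) and Ubb 56.4% (coding 38.4%). Of the 134 genes at or above 1000 TPM, 23 had under 90% and 4 under 50% by this measure. Over the table, 906 genes had less than 10% unique coding stretches and a median of 0 TPM, 555 of them without a count in any oocyte and 110 at or above 10 TPM. The 18454 genes above 90% had a median of 1.5 TPM. The sources used here do not say how reads with several matches were counted, and whether this lowered these genes was not tested. Rec8, Hk1 and Gnas have 100% and Ago1 97.1% unique coding stretches, and 22% of the exon bases of Gnas overlap another gene.

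Detection followed the level of the genes. Of 21968 genes, 11220 (51.1%) had a count in every oocyte, with a median of 22.3 CPM. The number found in every oocyte was 9479 at 1 CPM and 9782 at 5 counts. A further 4112 (18.7%) had none in any oocyte, and 6636 were found in some oocytes, at a median of 0.110 CPM, 1215 of them in a single oocyte. That median is under the 0.405 to 0.638 CPM that 3 counts make in 1 library. Whether patchy detection reflects more than depth was not tested. The number of genes per oocyte averaged 14013 ± 73 over the 5 mice (SD, n = 5). Fcgbp, with a mean of 128 CPM, was the most abundant gene missing from at least 1 oocyte: it had 0 counts in tube 3 and 39.5 to 309 CPM in the other 17.

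Transcripts of neighbouring cell types were low but present. Of 19 markers of granulosa and cumulus cells, 6 had counts in every oocyte and 2, Ptx3 and Tnfaip6, in none. Their summed level ran from 96.6 to 163 CPM over oocytes with a median of 130. Cyp19a1 (aromatase) made up the largest part at 35 ± 2.12 TPM and was even, running from 25.7 to 44.5 TPM. Others were uneven: Hsd3b1, an enzyme of steroid synthesis, ran from 0.220 to 41.7 TPM and Inha, the inhibin alpha subunit, from 1.64 to 46.5. Nr5a2, a nuclear receptor of granulosa cells, was at 15.2 ± 2.15 TPM. The granulosa-defining Fshr, Amh and Foxl2 were at 5.59 ± 3.52, 0.183 ± 0.165 and 0.0838 ± 0.0550 TPM. The 17 markers of stroma, endothelium, epithelium, blood and immune cells summed to 28.3 to 73.4 CPM. Of these, Pecam1 (17.1 ± 4.04 TPM) and Cd68 (6.87 ± 1.86) led, followed by Krt8 (2.28 ± 1.61) and by Dcn at 1.19 TPM (0 to 5.60 over oocytes), while Ptprc was at 0.00444 ± 0.00733 and Cdh5 had 0 counts. Whether attached cells, free RNA or the oocyte itself is the source was not tested.

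Genes known from sperm and from the embryo varied from absent to above 100 TPM, and 5 of each list had counts in every oocyte. Of 12 sperm genes, 4 (Tnp1, Acr, Pgk2 and Plcz1) had 0 counts in all oocytes. Prm2 was the highest at 47.1 ± 13.9 TPM, with 24.4 to 112 TPM over oocytes, followed by the testis lactate dehydrogenase gene Ldhc (21.7 ± 8.16), Odf1 (5.10 ± 1.41) and Acrv1 (1.14 ± 0.461). Prm1, the neighbour of Prm2, was at 0.744 ± 0.640. Of 13 embryo genes, 8 were under 1 TPM, among them Nanog (0.0637 ± 0.0599) and Sox2 (0.445 ± 0.359), and Cdx2 had 0 counts. Tcstv1, from a family known in the embryo at the cleavage stage, stood at 260 ± 54.3 TPM and its relative Tcstv3 at 115 ± 25. Zscan4d, another such gene, was at 17.8 ± 10.5 TPM and ran from 4.70 to 76.6, and Zscan4c (19% unique) was at 4.35 ± 3.09.

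Spread among oocytes was measured as the biological coefficient of variation (BCV) within mouse labels, the relative spread beyond counting noise in edgeR's model. The common BCV was 0.277. Estimated within each mouse label it was 0.172, 0.319, 0.299, 0.266 and 0.281 for mice 1 to 5, with a mean of 0.267 (SD 0.0570, n = 5). Among the 7485 genes with a mean of at least 10 CPM the median was 0.214, and the central 90% lay between 0.151 and 0.354. Abundant genes were not uniformly steady: H1foo ran from 6195 to 7514 CPM over 18 oocytes, whereas Zp3 ran from 1814 to 5882 and Padi6 from 2211 to 8094.

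The genes with the widest spread relative to the trend on level differed in how they varied, and 8 of the 10 widest had counts in all 18 oocytes. Bfsp1, a filament protein known from the lens, had counts in 13. It was at most 0.327 CPM in tubes 1 to 4, 29 and 30 and at least 26.9 CPM in the other 12 (BCV 1.49 against a trend of 0.226). Defb41, Tuba3b, Fcgbp, Tcstv1, Gli3, Ccl2, Gm4907, M1ap and Sdcbp2 followed. Tcstv1 was at 0.189 CPM in tube 10 and between 76 and 234 CPM in the other 17 oocytes. Ccl2, a chemokine, was at 154 CPM in tube 29 and between 0.897 and 26.4 CPM elsewhere. The genes with the narrowest spread relative to the trend included Rnf115, Rab5c, Iqcc, Fbxo47, Naa10, Slc37a3, Snx29, Sod2 and Snx16. Sod2, the superoxide dismutase of mitochondria, ran from 60.1 to 90.8 CPM (BCV 0.133), and the sorting nexin gene Snx16 from 62.8 to 87.1 CPM.

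**Figure D3:**
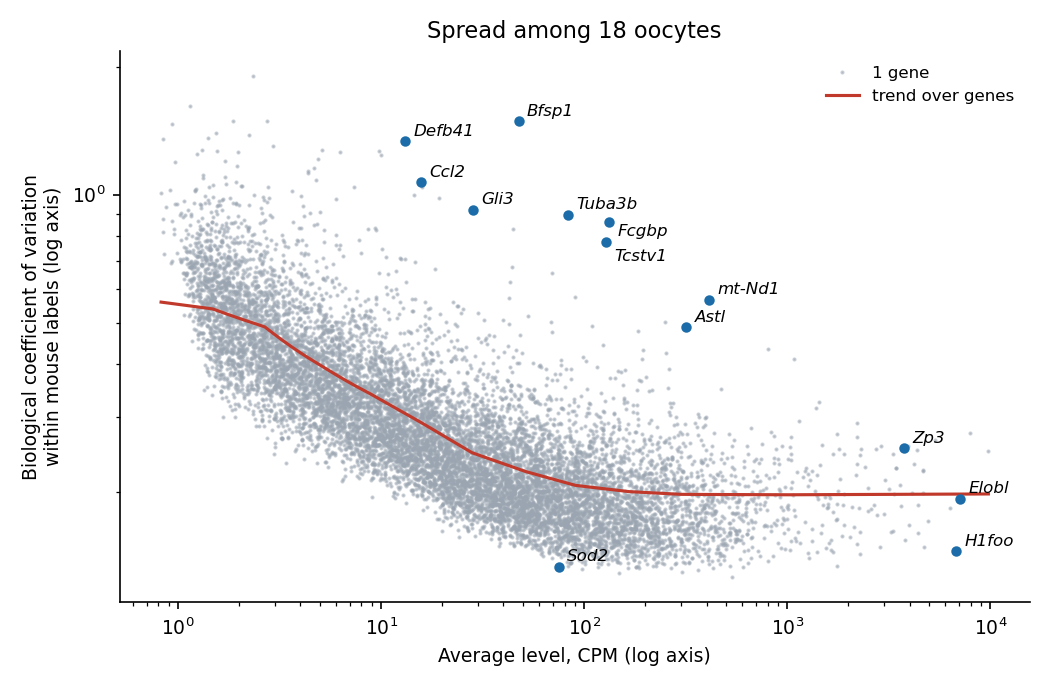
BCV within mouse labels (vertical, log axis) against average CPM (horizontal, log axis); each grey dot is a gene, the red line is the trend and blue points are named. Bfsp1 lies at 1.49 and Sod2 at 0.133, above and below a trend of 0.226 and 0.212 at their levels.

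Genes that split the oocytes into a low and a high side were then listed by a rule made after the data were seen: the widest gap between neighbouring oocytes, after sorting log2(CPM + 0.5), had to reach 1.5 with at least 2 oocytes on each side. The low side need not be 0 and reached 9.07 CPM for Zfp707. The rule found 32 genes on 16 chromosomes, and the sides of 1 of them, Ublcp1, followed the mouse labels. Dpys, an enzyme of pyrimidine breakdown, had 0 counts in 16 oocytes and 37.7 and 41.2 CPM in tubes 29 and 30. Eva1c and the growth factor gene Fgf7 were also high in tubes 29 and 30 (15.9 to 17.6 and 14.2 to 18.6 CPM) and at most 1.55 and 1.49 CPM in the other 16, 2 of which carry the same mouse label. The alpha-tubulin gene Tuba3b was at most 0.901 CPM in tubes 2 and 3 and at least 36.2 CPM elsewhere. Gli3, a transcription factor of hedgehog signalling, was at most 0.852 CPM in tubes 8 and 11 and at least 11.7 CPM elsewhere.

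Some of these genes shared a boundary between oocytes with others. The olfactory receptor gene Olfr206 had 0 counts in tubes 1 to 4 and 2.51 to 12.1 CPM in the other 14. Parp8 was between 6.42 and 14.6 CPM, and Pgm5 between 18.9 and 29.8 CPM, in tubes 1 to 4 and 11 to 15. In the other 9 oocytes they were at most 0.469 and 2.86 CPM. Cog2, Zfp707 and Olfr248 were high in tubes 11 to 13 (at least 5.62, 37.2 and 3.73 CPM) and at most 0.958, 9.07 and 0.625 CPM in the other 15. Zfp990 was between 10.4 and 25.8 CPM in tubes 11 to 15 and at most 2.45 CPM in the others. Tube 4, labelled mouse 2, stood with tubes 1 to 3 of mouse 1 in 6 of the 6 genes that separated these from tubes 5 and 6. Tubes 11 and 12, labelled mouse 3, stood with tube 13 of mouse 4 in 11 of the 11 genes that separated it from tubes 7, 8 and 10. The boundary of Zfp990 was that of the low Dnm1l values (tubes 11 to 15). Parp8 and Pgm5 were high in the tubes with the highest correlations with exon length (tubes 1 to 4 and 11 to 15). The correlations themselves had no gap there: tube 6, low for both genes, was at 0.0315, near tube 4 at 0.0493. The boundaries of Cog2, Zfp707 and Olfr248 put tubes 14 and 15 on the other side from tubes 11 to 13, and those of Bfsp1 and Olfr206 put tubes 1 to 4 opposite to tubes 11 to 15. Their source was not tested. The mouse labels were used as given, and whether tubes 4, 11 and 12 carry the right one was not tested. A different assignment would change the mouse means, SD, BCV and p-values given here.

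**Figure D4:**
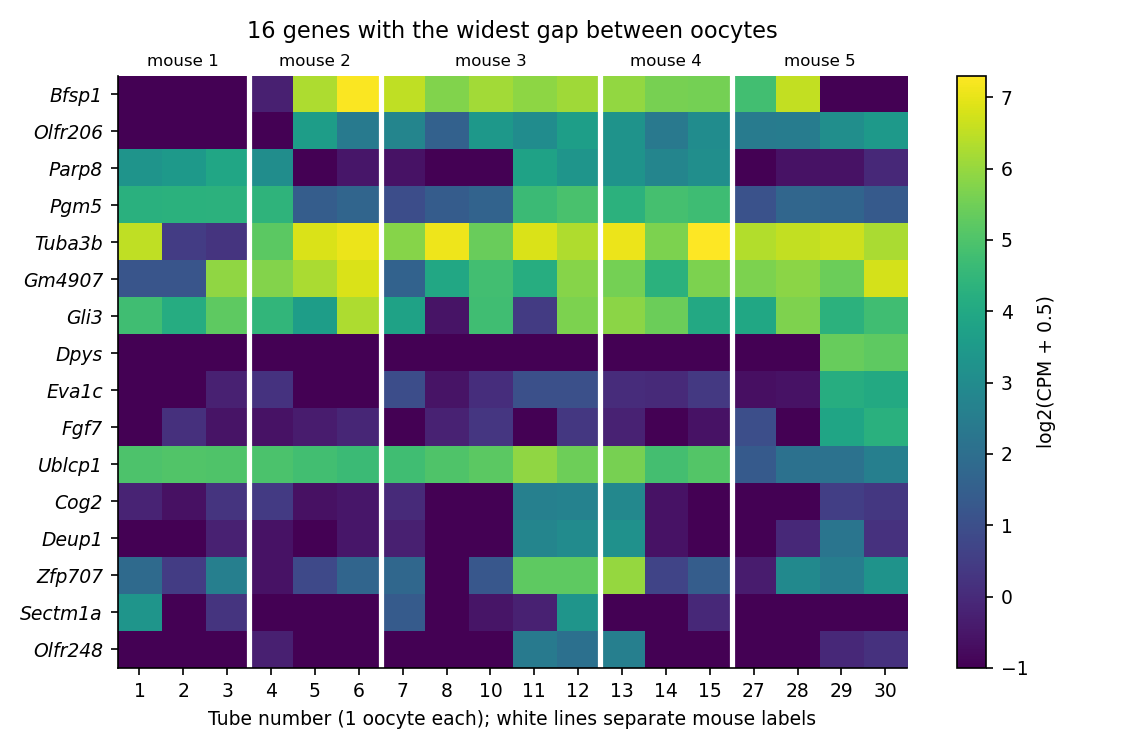
The 16 genes with the widest gap (rows) in 18 oocytes (columns, by tube number); colour is log2(CPM + 0.5) and white lines separate mouse labels. Tube 4 is coloured like tubes 1 to 3 for Bfsp1, Olfr206, Parp8 and Pgm5, and tubes 11 and 12 like tube 13 for Parp8, Pgm5, Cog2, Zfp707 and Olfr248.

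The mouse labels were compared to ask whether oocytes of different mice differed more than oocytes of the same mouse. With edgeR's quasi-likelihood F-test and Benjamini-Hochberg adjustment, 36 of 11742 genes tested (0.307%) passed an adjusted p of 0.05, and 2297 had an unadjusted p under 0.05. This test concerns these 5 mice and no treatment. DESeq2's likelihood ratio test called 1129 genes, and the edgeR count fell to 2 without tube 29 of mouse 5. Without tubes 11 to 15 it rose to 454, and with 1 mouse left out at a time it was 1, 414, 557, 1 and 0 for mice 1 to 5. Oocytes share a mouse label and, as the boundaries above show, some resemble oocytes of another label, so these p-values rest on labels that several genes cross.

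Ublcp1, which encodes a phosphatase of the nuclear proteasome, had the smallest p (edgeR adjusted p = 3.6e-06). Its coding stretches are 43.9% unique, and all its transcript stretches 81%. The gene was between 2.03 and 5.47 CPM in the 4 oocytes of mouse 5 and between 24.7 and 60.2 CPM in the 14 others, with no overlap. Its adjusted p ranged from 6.85e-33 (DESeq2) to 0.521 over 14 settings of edgeR or DESeq2 and passed in 13, the exception being the fit without mouse 5, where it was 0.521. Zfp933, a zinc finger gene, had an edgeR adjusted p of 0.0114, passing in 10 of 14 settings of edgeR or DESeq2 (adjusted p up to 0.131, without tubes 11 to 15) and not without mouse 1, 4 or 5. It ran from 42.4 to 58.1 CPM in tubes 11 to 15 and from 11.3 to 25.8 CPM in the other 13 oocytes. Its mouse means were 16.5, 16.2, 32.9, 48.6 and 16.1 CPM for mice 1 to 5, and mouse 3 held oocytes on both sides of that gap. Wdr20, a partner of deubiquitinating enzymes, was between 311 and 347 CPM in mice 1 and 4 and between 130 and 258 CPM in mice 2, 3 and 5 (edgeR adjusted p = 0.0271). It passed in 10 of 14 settings of edgeR or DESeq2, with an adjusted p of up to 0.246 (without mouse 5), and not without tube 29 or without mouse 1, 4 or 5. Trp53bp1, a DNA repair gene, lay between 109 and 171 CPM in tubes 1 to 3 and 11 to 15, with tube 4 at 89.2 CPM and none of the other 9 oocytes above 62.4 CPM. Daw1, Tent5b, Zfp990, AU022751, Sult2a4 and Rfc4 completed the 10 smallest p. Among 249 tested members of the 25 gene lists, 1 (0.402%) passed, beside 0.307% of all genes: Cpeb1 (edgeR adjusted p = 0.0457; 1013 CPM in mouse 1 and 543 CPM in mouse 5). Cpeb1 passed in 9 of 14 settings of edgeR or DESeq2, with an adjusted p of up to 0.358 (without mouse 1), and not without tube 29, tubes 6 and 27, or mouse 1, 4 or 5. The oocyte markers did not pass.

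**Figure D5:**
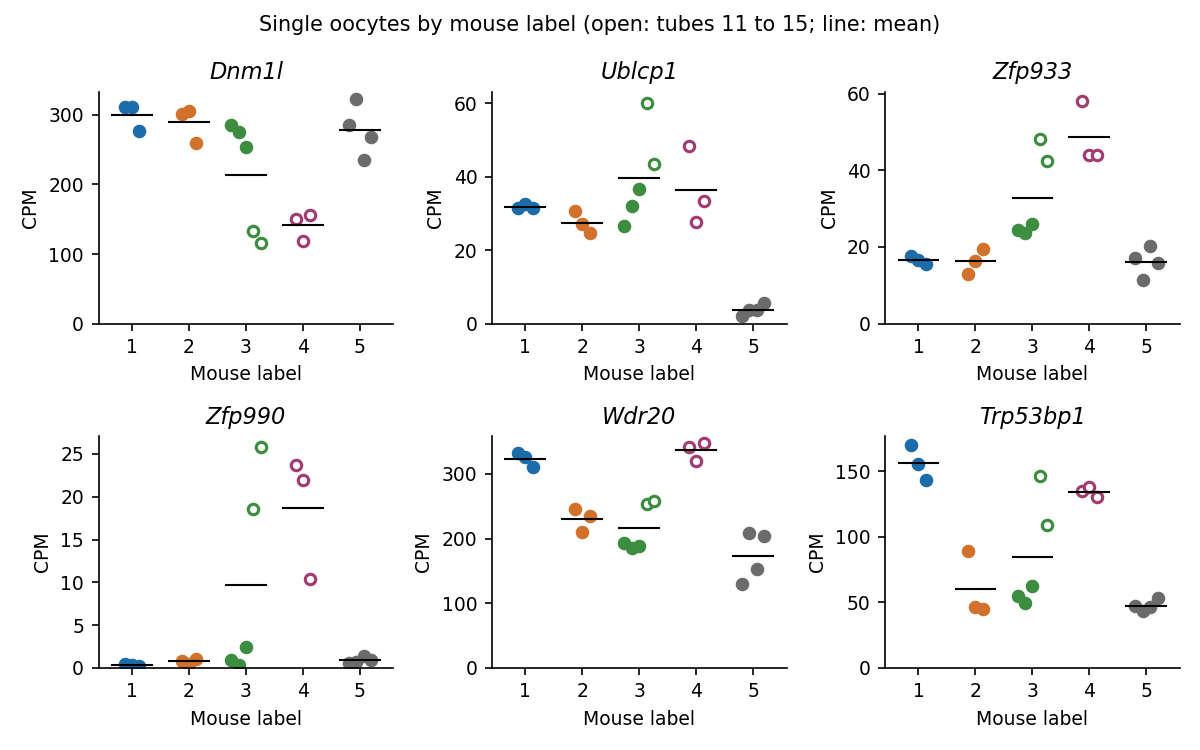
CPM (vertical, from 0) of single oocytes by mouse label (horizontal) for Dnm1l and 5 genes with a small p between mouse labels; lines are means and open points are tubes 11 to 15. Ublcp1 is at most 5.47 CPM in mouse 5, and within mouse 3 the open points lie apart from the filled ones for Dnm1l, Zfp933 and Zfp990.

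Sex-linked genes were also read. Among genes with a mean of at least 1 TPM, the 381 X-linked genes had a median of 11.4 TPM and the 10650 autosomal genes a median of 13.9 TPM, a ratio of 0.820. Of 183 Y-linked genes in the table, 4 had counts, 168 in all among 109221471. Kdm5d had 60 of these in 17 oocytes and Gm20826 had 105. Over all transcript stretches, coding or not, Gm20826 is 0.106% unique and Kdm5d 100%. The source of the Kdm5d counts was not tested.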

How the data were processed

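Each oocyte was lysed and amplified with the SMARTer Ultra Low Input kit, made into a Nextera XT library and sequenced single-end on an Illumina HiSeq, per the labels' protocols. The authors deposited raw counts per gene, 21968 Ensembl genes in 36 columns. STAR, featureCounts, Subread 1.5.2, Picard and GRCm38 are named in the submitters' processing notes, without their settings. No molecular identifiers are named, so PCR copies may count as reads, and reads of overlapping genes on opposite strands cannot be told apart. Oocytes with the same mouse label were taken as oocytes of 1 mouse, as labelled.

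Genes were matched by ID to GENCODE M21 (21876 matched). CPM used each library's own total, and TPM the union of exons. BCV and the F-test over mouse labels came from edgeR 4.0.16 (R 4.3.3) with TMM factors and its filter on low counts; DESeq2 1.42.0 was the alternative. The code was tested on simulated data. Members, markers and lists were chosen with earlier results of these data known. Genes named are the markers, the 20 highest by TPM, the highest 4 of each list (the text adds further members for contrast, chosen after their values were seen), the 10 widest and 10 narrowest in spread (1 of the latter is not reported here), the 10 smallest p and Dnm1l. List symbols Nlrp4d, Nlrp4g, Papd4, Zcchc11, Zcchc6 and Dnmt3c had no match. Uniqueness, the rule on gaps between oocytes and leaving out tubes 6 and 27 were chosen after seeing the data.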

Additional observations from a re-analysis of the deposited data

Results flagged for a closer look

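Among 166 groups of 5 mouse means, 11 had a mean set apart from the other 4 by more than Dixon's 95% limit (0.71 of the range), where chance gives about 1 in 20. Mouse 5 stood apart for total counts (6590337 per oocyte, against 5857423 to 6003879). It was low for Gpr3 (15.7 CPM, against 25.5 to 29) and for Dnmt1 (887 CPM, against 1194 to 1318). It was high for Dcn, a stromal marker (7.06 CPM, against 1.39 to 1.67), for Ccl2 (41.6 CPM, against 1.64 to 13.2), which rests on tube 29, and for Iqcc (13.3 CPM, against 10.4 to 10.5). Its summed level of the Mos and anaphase genes was 5647 CPM, against 4697 to 4970.

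Mouse 1 was high for Nlrp4f (3577 CPM, against 2549 to 2841) and low for mt-Co1 (373 CPM, against 803 to 968) and for the sum of the secreted factors (11092 CPM, against 12061 to 12455). Mouse 4 was high for Tcstv1 (175 CPM, against 118 to 128), but its oocytes were not set apart. They ran from 143 to 218 CPM, and tubes 11 and 12 of mouse 3 were at 198 and 234 CPM. The mean of mouse 3 also holds tube 10 at 0.189 CPM.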

How the results depend on the processing

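The count of genes differing among mouse labels was the least stable value. It was 36 with edgeR, 37 with DESeq2's size factors and 36 without the mitochondrial genome, but 13 with library totals only, 111 with no filter on low counts, 58 at a mean of at least 10 CPM, 454 without tubes 11 to 15, 2 without tube 29, 5 without tubes 6 and 27 and 1129 with DESeq2's likelihood ratio test. Leaving out a mouse gave 0 to 557. The cause was not tested. The share of TPM in the 50 most abundant genes was 24.9% with the longest transcript as length, against 28.3%, and 28 to 28.5% with a mouse left out. Genes detected per oocyte averaged 13792 after thinning to the lowest total, 11345 at 1 CPM and 11775 at 5 counts, against 14013. The common BCV was 0.254 to 0.309 in every setting tried. Elobl had the highest TPM in each of 13 settings, with 17 to 20 of the 20 highest genes shared. Of 1656 TPM values of 138 named genes under other settings, 61 moved by more than the SD over mice, 56 of them with the longest transcript as length. No paired analysis was possible because a single group was described.

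TPM compares genes only as far as exon length stands for the transcript, and genes at or under 0.405 to 0.638 CPM (3 counts) cannot be told from 0 in 1 oocyte.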
